A study of Homo sapiens with 6 samples.

Results

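The HOX cluster genes are the homeobox genes of the HOXA, HOXB, HOXC and HOXD clusters, and they were chosen by name as every gene of the deposited count table called HOXA, HOXB, HOXC or HOXD followed by a number. The rule found 39 of the 20030 genes of the table, and 38 of them are described here, 10 of HOXA, 10 of HOXB, 9 of HOXC and 9 of HOXD. The levels come from mRNA sequencing of HepG2, an established human hepatoma line, in which lentivirus delivered a control short hairpin RNA (sh-ctrl, 3 libraries) or a short hairpin RNA against KIF11 (sh-KIF11, 3 libraries). Both groups are the same cell line and both carry a lentiviral hairpin, and no other treatment, time or dose is given in the labels. KIF11 is the kinesin motor that builds the bipolar mitotic spindle, and the comparison asks how HOX mRNA differs when its mRNA is knocked down. The labels do not say whether the libraries of a group came from separate cultures, so each p-value measures the spread between these libraries, which may be technical.

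HOX proteins are transcription factors that carry a homeodomain and bind DNA together with the PBX, MEIS and PREP homeodomain cofactors. In the embryo they give cells their position along the head-to-tail axis. The genes of a cluster lie in a row, and those at the 3′ end are switched on earlier and nearer the head than those at the 5′ end, an order called collinearity. Genes with the same number in different clusters are paralogs, and low numbers mark the 3′ end. Polycomb complexes keep HOX clusters silent, MLL complexes keep them active, and retinoic acid switches on 3′ members. Adult liver is known for low HOX expression, and many carcinomas express a different set of HOX genes from their tissue of origin.

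The hairpin sequence listed by the study for sh-KIF11 was taken as that of these libraries, whose labels give no sequence. It contains a 21-base target, shown here.
sh-KIF11 target: gcgcccattcaatagtagaat
It matched the single KIF11 transcript of GENCODE release 29 in the coding part of exon 2 of 22, at chr10:92606294-92606314 on the plus strand of GRCh38. Only 1 such hairpin sequence is listed, so if it was the one used here, the sh-KIF11 group rests on 1 target site.

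RefSeq promoter windows, reaching from 250 bases before to 50 bases after a transcript start on GRCh38.p14, were found for 20 of the 38 HOX genes, in 27 windows. HOXA5, HOXC13 and all HOXB genes except HOXB1 were among the 18 genes without a window. The 100 bases just before the start are shown 5′ to 3′ on the gene's own strand for the 3 expressed HOXD genes, for HOXA4 and HOXA7, which moved in opposite directions, and for HOXD10, which had no count in any library. Capitals mark CCAAT, or ATTGG where that motif lies on the other strand. The only HOXD3 window of the table belongs to a transcript start inside the annotated span of HOXD3, not at its 5′ end.
HOXD1, chr2:176188568-176188667, plus strand: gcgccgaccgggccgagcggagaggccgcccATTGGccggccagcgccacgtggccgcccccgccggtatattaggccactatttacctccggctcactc
HOXD3, chr2:176157207-176157306, plus strand: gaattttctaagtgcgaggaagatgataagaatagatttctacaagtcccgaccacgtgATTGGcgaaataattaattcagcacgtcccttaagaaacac
HOXD4, chr2:176151450-176151549, plus strand: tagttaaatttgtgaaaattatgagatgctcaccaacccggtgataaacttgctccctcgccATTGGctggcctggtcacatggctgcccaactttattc
HOXD10, chr2:176116678-176116777, plus strand: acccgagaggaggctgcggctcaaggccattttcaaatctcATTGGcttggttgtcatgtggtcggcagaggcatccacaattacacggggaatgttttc
HOXA4, chr7:27130758-27130857, minus strand: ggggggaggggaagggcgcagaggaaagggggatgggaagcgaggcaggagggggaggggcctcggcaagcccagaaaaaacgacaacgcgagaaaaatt
HOXA7, chr7:27156676-27156775, minus strand: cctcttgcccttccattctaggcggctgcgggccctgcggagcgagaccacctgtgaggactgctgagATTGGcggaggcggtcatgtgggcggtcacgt

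CCAAT was found on either strand in 18 of the 27 HOX windows, 66.7%, and in 34.6% of all 35116 windows of this length in the table. The HOX windows are not independent, since 7 of them belong to HOXA3 and HOXC4 and HOXC5 share 1. TATAAA was in 5 of the HOX windows, 18.5%, against 11.5% of all windows. TGATNNAT, a letter pattern for joint HOX and PBX binding, was in 3 of them, 11.1% against 7.40%, and AGGTCA, the core letters bound by retinoic acid receptors, was in 0 of them against 13.8% of all windows. The HOX windows held a median of 22 CpG dinucleotides, against 14 over all windows. The silent HOXD10 window held 23, while the window of HOXD4, the HOX gene with the most counts, held 4 and that of HOXD1 held 36.

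Library totals ranged from 18167773 to 19583282 counts and did not separate the groups. KIF11 itself had 1976, 2088 and 2039 counts under sh-ctrl, against 1448, 1478 and 1240 under sh-KIF11, a log2 fold change of -0.75 ± 0.06 (SE, adjusted p = 4.22e-15, quasi-likelihood test of edgeR, Benjamini-Hochberg adjusted over all tested genes). Of 17 hepatocyte markers, none was at 0 and 15 were called lower in sh-KIF11, where 34.7% of all tested genes were. The summed level of these 17 was 41346 to 43293 CPM in sh-ctrl and 17841 to 19246 CPM in sh-KIF11, CPM being counts per library size after TMM scaling. Markers of other cell types were sparse, with 1 of 12 fibroblast markers tested (PDGFRB, lower), 2 of 8 endothelial markers (VWF higher, PECAM1 not called) and 2 of 8 kidney markers (PAX8 and WT1, not called). The summed fibroblast level was 2.55 to 3.93 CPM in sh-ctrl and 1.50 to 2.19 CPM in sh-KIF11, the endothelial one 3.16 to 3.56 CPM and 4.73 to 4.98 CPM, and the kidney one 15.1 to 16.3 CPM and 12.5 to 17.1 CPM. DCN, THY1, POSTN, TWIST1, FAP, TEK, ERG, EMCN, MS4A1, SIX2, NEFL and NEFM had no count in any library. All 4 tested of 10 leukocyte markers were called lower, against the same 34.7% of all tested genes. CD14 among them passed the low-count filter only through the sh-ctrl libraries, so its call does not count as support for a direction. The summed level of the 10, 2488 to 2985 CPM against 509.1 to 640.7 CPM, came mostly from LYZ. PTPRC, which defines leukocytes, stayed below 0.02 CPM on average in both groups. The part of these shifts in the HOX values was not tested.

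In sh-ctrl, HOX mRNA in HepG2 was almost entirely HOXD mRNA from the 3′ end of that cluster. HOXD1 and HOXD4 together held 86.2% ± 0.122 (SD, n = 3) of all HOX counts, and the HOXD cluster as a whole held 89.9% ± 0.240. The HOXA cluster held 9.79% ± 0.216, HOXC 0.316% ± 0.0115 and HOXB 0.0188% ± 0.0218. Per transcript length, HOXD1 stood highest at 79.0 ± 0.860 FPKM (fragments scaled to transcript length and library size; SD, n = 3). HOXD4 followed at 28.9 ± 0.722 FPKM, HOXA4 at 6.33 ± 0.338, HOXA5 at 3.99 ± 0.773, HOXD3 at 1.94 ± 0.117 and HOXA3 at 1.56 ± 0.196. Neighbours in this order did not overlap between libraries down to HOXA6, at 0.589 ± 0.0824 FPKM, and the order below HOXC13, at 0.251 ± 0.0768 FPKM, was mostly within the spread. The map of the clusters therefore showed 2 filled stretches, HOXD1 to HOXD4 and HOXA3 to HOXA6, and little else.

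**Figure D1:**
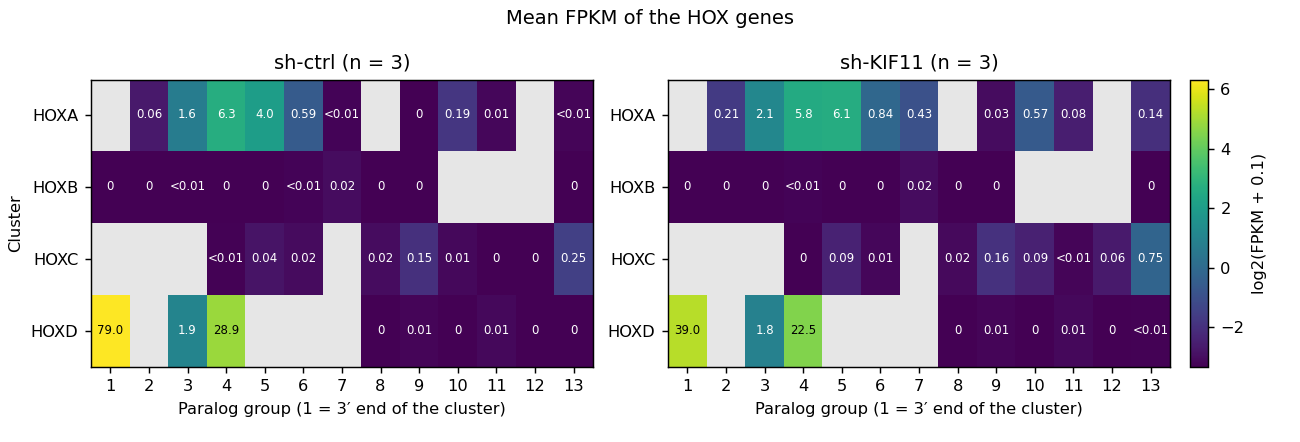
Mean FPKM of each HOX gene (n = 3 libraries per group), with the 4 clusters as rows and the paralog group, from the 3′ end on the left, as columns. Colour is log2(FPKM + 0.1), the printed numbers are FPKM, and grey squares hold no gene described here. HOXD1 is 79.0 in sh-ctrl and 39.0 in sh-KIF11, HOXB is near 0 throughout, and HOXA7 goes from under 0.01 to 0.43.

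A gene was called detected in a group when at least 1 of its libraries had over 3 counts, since a count of 0 still allows up to 3, which is 0.153 to 0.165 CPM when scaled by the library total. By this measure 12 HOX genes were detected in sh-ctrl and 17 in sh-KIF11. In both groups 21 of the 38 genes stayed at or under 3 counts in every library, 55.3% of the HOX genes against 29.6% of all genes of the table. A further 5 genes, HOXA7, HOXA11, HOXA13, HOXC10 and HOXC12, were at or under 3 counts in sh-ctrl and above it in at least 1 sh-KIF11 library, 13.2% against 4.68% of all genes. No HOX gene went the other way, where the share over all genes was 0.824%. Such shares also depend on how many genes have few counts, since a gene over 3 counts in both groups cannot enter either. HOX genes more often had few counts, so the shares are not read as particular to them. Per library, 10 or 11 HOX genes had over 3 counts in sh-ctrl and 15 or 16 in sh-KIF11. These counts cover counting error only, and at this depth a level under the limit cannot be told from absence.

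For testing, 10 HOX genes passed the low-count filter and 28 did not. Of the 10, 5 were called higher in sh-KIF11, where 34.4% of all 12369 tested genes were, and 4 were called lower, where 34.7% were. Together 9 of 10 were called, against 69.1% of all tested genes. In CPM, sh-ctrl and sh-KIF11 libraries were fully separate for 8 of the 10, against 71.2% of all tested genes. With so broad a difference between the groups, a call alone says little about the HOX genes, and their direction and size carry more. HOXA7, HOXA10 and HOXC13 passed the filter only through the sh-KIF11 libraries, so a higher level there was a condition for testing them, and their calls do not count as support for a direction. The other 7, HOXA3 to HOXA6 and the 3 HOXD genes, passed in both groups. Among those, HOXA3 and HOXA5 were called higher, HOXA4, HOXD1, HOXD3 and HOXD4 lower, and HOXA6 was not called.

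All 3 tested HOXD genes were lower in sh-KIF11. The summed HOXD level was 353, 364 and 349 CPM in sh-ctrl, compared with 236, 199 and 183 CPM in sh-KIF11, a ratio of 0.581, and the groups did not overlap. HOXD1, the 3′-most gene of the cluster and an anterior-class factor, lies at chr2:176188668-176190907 on the plus strand (GRCh38, RefSeq). It had 2853, 2938 and 2658 counts under sh-ctrl, against 1663, 1388 and 1173 under sh-KIF11. Every sh-KIF11 library was far below every sh-ctrl library, and the sh-KIF11 libraries were also more spread among themselves. The log2 fold change was -1.20 ± 0.07 (SE, adjusted p = 1.75e-19, edgeR quasi-likelihood test), or 0.436 of the sh-ctrl level, and the FPKM mean went from 79.0 to 39.0 ± 6.22. In this fit it was the only HOX gene called lower by at least 2-fold. Over 16 settings, this one included, its log2 fold change ranged from -1.34 to -0.97, so not every setting gave 2-fold. HOXD1 overlaps the antisense RNA gene HAGLR, and whether the counting used strand is not given in the sources used here. In bulk RNA, fewer cells that express a gene and less of its mRNA in each cell cannot be told apart.

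HOXD4, a central-class gene at chr2:176151550-176153226, fell less. It had 3188, 3355 and 2975 counts under sh-ctrl, against 2796, 2489 and 2244 under sh-KIF11, without overlap. Its log2 fold change was -0.53 ± 0.06 (SE, adjusted p = 4.68e-11, edgeR), or 0.690 of the sh-ctrl level. Over the same 16 settings it ranged from -0.62 to -0.30. The ratio of HOXD1 to HOXD4 counts within a library, which no scaling can move, was 0.895, 0.876 and 0.893 in sh-ctrl, compared with 0.595, 0.558 and 0.523 in sh-KIF11. The sh-KIF11 ratios were all lower, with a two-sided exact permutation p of 0.1, the smallest that 3 against 3 libraries can give.

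HOXD3, which lies between them at chr2:176152529-176173098 and overlaps HOXD4 on the same strand, was nearly level. Its counts overlapped, at 250, 269 and 248 for sh-ctrl and 281, 238 and 200 for sh-KIF11. After scaling, the lowest sh-ctrl library, at 14.02 CPM, lay just above the highest sh-KIF11 library, so the groups barely parted. The log2 fold change was -0.29 ± 0.11 (SE, adjusted p = 0.0156, edgeR). This call was lost in limma on log2(FPKM + 1) (-0.09, adjusted p = 0.304) and on log2(FPKM + 0.1) (-0.13, adjusted p = 0.326), with upper-quartile scaling (-0.21, adjusted p = 0.0751) and with library totals alone (-0.06, adjusted p = 0.623). It was also lost without sh-ctrl library 2 (adjusted p = 0.0533), sh-KIF11 library 2 (0.0518) or sh-KIF11 library 3 (0.143).

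The 6 HOXD genes 5′ of HOXD4, from HOXD8 to HOXD13, were undetected in both groups. HOXD8, HOXD10 and HOXD12 had no count in any library, and HOXD9, HOXD11 and HOXD13 never had more than 1. The border between HOXD4 and HOXD8 stood in the same place in both groups.

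**Figure D2:**
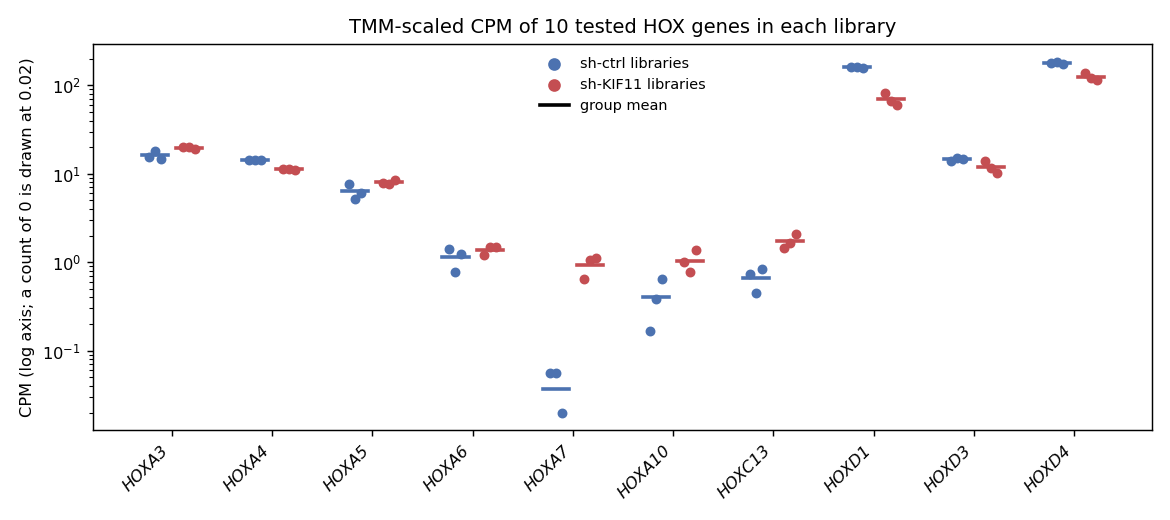
TMM-scaled CPM, on a log axis, of 10 tested HOX genes in each of the 6 libraries (points) with the group mean (line), and counts of 0 drawn at 0.02. HOXD1 and HOXD4 are the 2 highest genes and lie lower in all 3 sh-KIF11 libraries, and HOXA7 shows the widest gap.

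The HOXA cluster as a whole differed little. Its summed level was 39.5, 39.4 and 37.2 CPM in sh-ctrl, compared with 42.9, 43.2 and 44.0 CPM in sh-KIF11, a ratio of 1.12, with every sh-KIF11 library above every sh-ctrl library. That ratio was 1.32 with library totals alone and 1.05 without HOXA3. Among the 4 HOXA genes that passed the filter in both groups, 2 were called higher and 1 lower. Of its 10 genes 9 had a higher mean CPM in sh-KIF11, and HOXA4 was the exception. Several of the 9 had few counts, such as HOXA9 with 0 against 3 in sum, and the same share over all genes was not computed.

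HOXA3, HOXA4, HOXA5 and HOXA6 made up most HOXA counts, and HOXA3 and HOXA4 moved apart. HOXA3, a paralog of HOXD3 known for its role in pharyngeal organs, lies at chr7:27107010-27152583 on the minus strand. It had 275, 330 and 249 counts under sh-ctrl, against 398, 413 and 381 under sh-KIF11. All sh-KIF11 values were above all sh-ctrl values, and the log2 fold change was 0.29 ± 0.09 (SE, adjusted p = 0.00584, edgeR). The annotated span of HOXA3 includes HOXA4, HOXA5 and HOXA6 on the same strand, and how reads shared by such genes were assigned is not given in the sources used here.

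HOXA4, at chr7:27128525-27130757, had 256, 261 and 244 counts under sh-ctrl, against 226, 235 and 218 under sh-KIF11. The groups were tight and did not overlap in CPM, at 14.4 ± 0.0611 and 11.2 ± 0.154 CPM (SD, n = 3). Its log2 fold change was -0.36 ± 0.10 (SE, adjusted p = 0.00153, edgeR). The call was lost with library totals alone (-0.13, adjusted p = 0.239) and on log2(FPKM + 1) with limma (-0.11, adjusted p = 0.115). It was also lost with limma on log2(FPKM + 0.1). The sign stayed the same in each.

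HOXA5, a gene known for its role in lung and breast, lies at chr7:27141052-27143681 and had 138, 94 and 102 counts under sh-ctrl, against 156, 160 and 167 under sh-KIF11. In CPM the groups overlapped, since sh-ctrl library 1 at 7.74 reached above the lowest sh-KIF11 library at 7.73. The log2 fold change was 0.34 ± 0.14 (SE, adjusted p = 0.0330, edgeR), and DESeq2 did not call it (adjusted p = 0.0736). The edgeR call was lost without sh-ctrl library 2 (0.21, adjusted p = 0.216), sh-ctrl library 3 (adjusted p = 0.0834) or sh-KIF11 library 3 (adjusted p = 0.104).

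HOXA6, at chr7:27145396-27147774, had 25, 14 and 21 counts under sh-ctrl, against 24, 31 and 29 under sh-KIF11. The groups overlapped, and the log2 fold change of 0.29 ± 0.31 (SE, adjusted p = 0.416, edgeR) did not pass. By FPKM, HOXA5 stood at 6.12 ± 0.228 and HOXA4 at 5.79 ± 0.0937 in sh-KIF11, with overlapping libraries, whereas HOXA4 was above HOXA5 in every sh-ctrl library.

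Other HOXA genes were rarely counted in sh-ctrl and more often in sh-KIF11. HOXA7, a central-class gene next to HOXA6 at chr7:27153716-27156675, had 1, 1 and 0 counts under sh-ctrl, against 13, 22 and 22 under sh-KIF11. No sh-KIF11 library came near the sh-ctrl ones. The ratio of summed counts per scaled library size was 24.9, with an exact 95% interval (Clopper-Pearson) of 6.57 to 210.2 for counting error only, and the adjusted p was 5.70e-07 (edgeR). HOXA7 overlaps the antisense RNA gene HOXA-AS3, as do HOXA3, HOXA5 and HOXA6. HOXA3 and HOXA4 overlap the antisense gene HOXA-AS2, and HOXA10 overlaps HOXA10-AS on the other strand.

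HOXA2, a hindbrain gene, did not pass the filter, with 5, 2 and 0 counts under sh-ctrl, against 13, 7 and 9 under sh-KIF11, a ratio of 3.61 (exact 95% interval 1.55 to 9.77). With no low-count filter it was called (adjusted p = 0.0260, edgeR).

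HOXA10, a posterior-class gene of the uterus and blood, lies at chr7:27170605-27179861 and overlaps the read-through gene HOXA10-HOXA9. It had 3, 7 and 11 counts under sh-ctrl, against 20, 16 and 27 under sh-KIF11, with a log2 fold change of 1.37 ± 0.43 (SE, adjusted p = 0.00465, edgeR). All sh-KIF11 values were above all sh-ctrl values. HOXA13, at the 5′ end and a gene of distal limb and urogenital tract, had 0, 1 and 0 counts under sh-ctrl, against 6, 6 and 7 under sh-KIF11. The ratio was 16.6, with an interval of 2.63 to 688.6, and it was called only when no filter was set (adjusted p = 0.00449, edgeR). HOXA11, a limb and kidney gene, had 1, 1 and 0 against 3, 4 and 6 counts, a ratio of 5.67 (interval 1.28 to 51.7), and was not called with no filter (adjusted p = 0.0757). HOXA9, a blood stem cell gene, was the only HOXA gene undetected in both groups, with 0, 0 and 0 against 2, 0 and 1 counts.

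**Figure D3:**
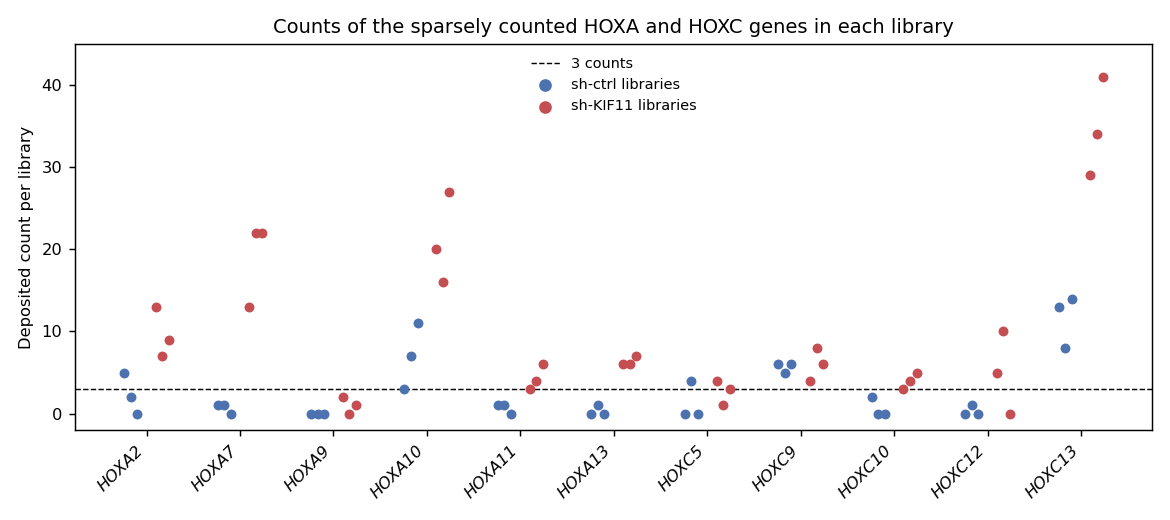
Deposited counts per library of 11 sparsely counted HOXA and HOXC genes, with sh-ctrl and sh-KIF11 libraries as points and the limit of 3 counts dashed. HOXA7 is at 0 or 1 in sh-ctrl and between 13 and 22 in sh-KIF11, and HOXC9 and HOXA9 show no separation.

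HOXC genes were low in both groups, and HOXC13 led them. The summed HOXC level was 1.23, 1.33 and 1.19 CPM in sh-ctrl, compared with 2.24, 3.04 and 2.89 CPM in sh-KIF11, a ratio of 2.18, without overlap. Without HOXC13 the ratio was 1.72. HOXC13, the 5′-most gene and a regulator of hair and nail keratins, lies at chr12:53938831-53946544 and overlaps HOXC13-AS on the other strand. It had 13, 8 and 14 counts under sh-ctrl, against 29, 34 and 41 under sh-KIF11, a log2 fold change of 1.36 ± 0.33 (SE, adjusted p = 0.000382, edgeR), with every sh-KIF11 library higher.

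The other 8 HOXC genes did not pass the filter. HOXC12 had 0, 1 and 0 counts under sh-ctrl, against 5, 10 and 0 under sh-KIF11. The groups overlapped because sh-KIF11 library 3 had no count, and the ratio of 13.1 had an interval of 2.01 to 550.8. With no filter HOXC12 was called (adjusted p = 0.0166, edgeR). HOXC10 had 2, 0 and 0 against 3, 4 and 5 counts, a ratio of 5.23 (interval 1.17 to 48.1), and was not called with no filter (adjusted p = 0.10). HOXC9 was even, with 6, 5 and 6 against 4, 8 and 6 counts and a ratio of 0.924 (interval 0.449 to 1.91). HOXC5 had 0, 4 and 0 against 4, 1 and 3 counts. HOXC6, HOXC8 and HOXC11 never exceeded 3 counts, and HOXC4, which shares its first promoter window with HOXC5, had no count.

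The HOXB cluster was silent in both groups. None of its 10 genes had more than 1 count in a library, and HOXB1, HOXB2, HOXB5, HOXB8, HOXB9 and HOXB13 had no count at all. The whole cluster had 3, 1 and 0 counts under sh-ctrl, against 2, 1 and 0 under sh-KIF11. Of its flanking genes, SKAP1 and PRAC1 had no count either, while SNX11, CBX1, CALCOCO2 and ATP5MC1 were all tested, SNX11 with the fewest counts, 369 to 428 per library. Over the 4 clusters, 10 HOX genes had no count in any library.

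By position along the axis, the anterior genes (paralog groups 1 to 3) and the central genes (4 to 8) held nearly all HOX counts. The 7 anterior genes had 48.3% of them in sh-ctrl and 40.4% in sh-KIF11, the 15 central genes 51.3% and 58.0%, and the 16 posterior genes (9 to 13) 0.393% and 1.66%. The number of genes detected was 4 in both groups for anterior, 5 and 6 for central, and 3 and 7 for posterior genes. Of the 12 posterior genes with any count, 9 had a higher and 3 a lower mean CPM in sh-KIF11. Some of the 9 rest on very few summed counts, HOXD13 on 0 against 2 and HOXA9 on 0 against 3. HOXC11 also had 0 against 3, all from sh-KIF11 library 2. The same share over all genes was not computed, so the split is not read as particular to posterior genes. Over all genes, 4.68% were at or under 3 counts only in sh-ctrl and 0.824% only in sh-KIF11. The highest posterior level was that of HOXC13, at 0.251 FPKM in sh-ctrl and 0.755 FPKM in sh-KIF11, so these genes stayed far below HOXD1 in both groups.

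Ratios within a library compare the clusters without any scaling. The ratio of HOXA to HOXD counts was 0.112, 0.108 and 0.107 in sh-ctrl, compared with 0.182, 0.217 and 0.240 in sh-KIF11, about 1.95 times higher on average, with no overlap (exact permutation p = 0.1, two-sided, the smallest possible). Among paralogs, the ratio of HOXA3 to HOXD3 was 1.11 ± 0.112 under sh-ctrl and 1.69 ± 0.248 under sh-KIF11 (SD, n = 3, exact permutation p = 0.1). The ratio of HOXA4 to HOXD4 was 0.0800 ± 0.00212 and 0.0908 ± 0.00874, with overlap (exact permutation p = 0.2). These are 4 ratios in all, HOXD1 to HOXD4 included, and Benjamini-Hochberg adjustment leaves none under 0.05. HOXD1 and HOXD4 together made up 86.0%, 86.2% and 86.3% of HOX counts in sh-ctrl, but 78.9%, 76.4% and 75.2% in sh-KIF11.

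**Figure D4:**
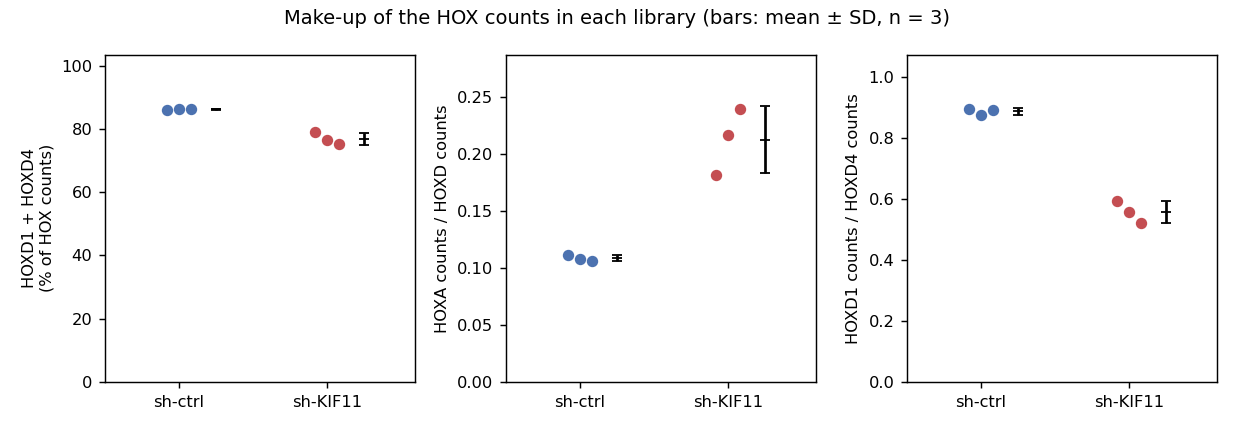
Share of HOXD1 plus HOXD4 in all HOX counts (percent, left), ratio of HOXA to HOXD counts (middle) and ratio of HOXD1 to HOXD4 counts (right) in each library, with mean ± SD (n = 3). The share goes from 86.2% to 76.9%, the HOXA to HOXD ratio from 0.109 to 0.213 and the HOXD1 to HOXD4 ratio from 0.888 to 0.558, and no group overlaps the other.

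**Figure D5:**
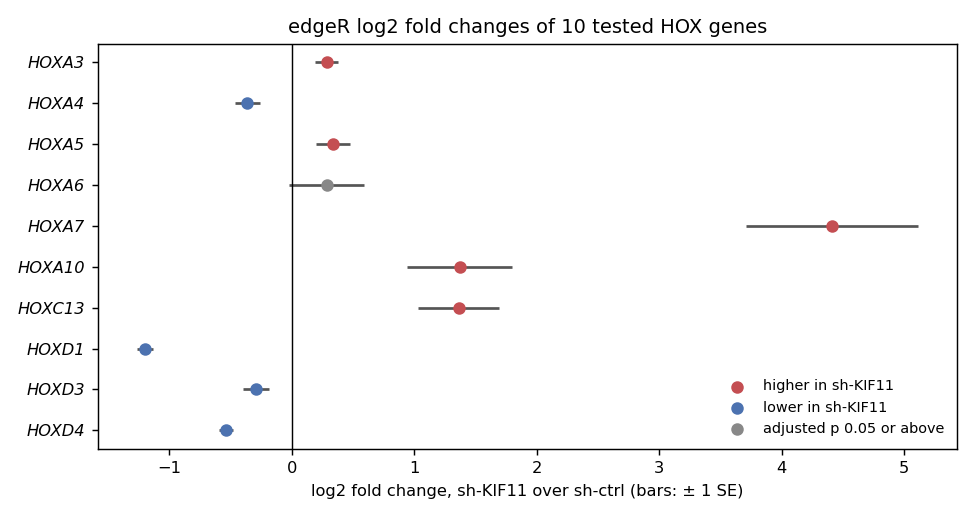
edgeR log2 fold changes of sh-KIF11 over sh-ctrl for 10 tested HOX genes, with bars of ± 1 SE. The 3 HOXD genes and HOXA4 lie below 0, HOXA7 is farthest above 0 at 4.41, a fitted value that depends on how counts near 0 are treated, and the bar of HOXA6 reaches 0.

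Tested genes beside the clusters were called higher, lower or not at all. Over all tested genes 34.4% were called higher and 34.7% lower, so these calls alone say little about the neighbourhoods. Around HOXA, SKAP2 (log2 fold change 0.59 ± 0.07) and TAX1BP1 (0.69 ± 0.05) rose (SE, edgeR), while SNX10 (-0.07) and HIBADH (0.10) were not called. Around HOXD, ATP5MC3, a subunit of the mitochondrial ATP synthase, fell by 0.77 on the log2 scale, and MTX2 (-0.02), LNPK (-0.08) and HNRNPA3 (-0.08) were not called, beside the lower HOXD1 and HOXD4. Around HOXC, CALCOCO1 (1.50 ± 0.09) and CBX5 (0.61 ± 0.06) rose, and SMUG1 (-0.54), ATP5MC2 (-0.50), HNRNPA1 (-0.26) and ATF7 (-0.15) fell. Around HOXB, CALCOCO2 (0.18) rose and ATP5MC1 (-0.77), SNX11 (-0.29) and CBX1 (-0.19) fell. These calls depended on the scaling, since library totals alone moved the median of all tested genes to 0.24 on the log2 scale. With them ATF7 and CBX1 changed sign to 0.08 and 0.04 and were not called, and SNX11 (-0.06) and HNRNPA1 (-0.03) were no longer called. SNX10 (0.16), MTX2 (0.21), LNPK (0.15) and HNRNPA3 (0.15) then changed sign and were called higher, as was HIBADH (0.33), so that the split around HOXD was 3 higher and 1 lower. With upper-quartile scaling HIBADH (0.18) was called higher. The flanking homeobox genes EVX1 and EVX2 had at most 1 count.

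The cofactors that HOX proteins bind DNA with changed little. Of 9 PBX, MEIS and PREP genes 5 were tested, 0 rose and 1 fell, with a median log2 fold change of 0.02 against 0.00 over all tested genes. The 1 that fell was PBX2 (-0.20 ± 0.05, adjusted p = 0.000645, edgeR), whose sign turned to 0.03 with library totals alone. MEIS2 (0.11), MEIS1 (0.16), PBX3 (0.02) and PKNOX1 (0.01) were not called. With library totals alone the split was 4 higher and 0 lower.

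Polycomb genes, like all tested genes, were called in both directions. Of 12 tested PRC2 genes, which make or guide the H3K27 methylation of silent HOX clusters, 5 rose and 5 fell, with a median of -0.01, where 34.4% of all tested genes were called higher and 34.7% lower. AEBP2 (0.46 ± 0.07) and SUZ12 (0.37 ± 0.06), a core subunit, rose, and EPOP (-0.95 ± 0.05) and PHF19 (-0.32 ± 0.06) fell (SE, edgeR). EZH2, the catalytic subunit, had -0.20 ± 0.06 (adjusted p = 0.00615), which turned to 0.04 with library totals alone, and EZH1, its paralog, rose by 0.49. Of 19 PRC1 genes 4 rose and 8 fell, with a median of -0.07. PHC1 (1.33 ± 0.09) and RNF2 (0.52 ± 0.08), a ubiquitin ligase, rose, and PCGF5 (-0.74 ± 0.06) and PCGF2 (-0.51 ± 0.05) fell. RING1, the paralog of RNF2 and also a ubiquitin ligase, fell (-0.35 ± 0.06), and was not called with library totals alone (-0.12). With library totals alone the splits were 8 higher and 1 lower for PRC2 and 8 and 5 for PRC1, and with upper-quartile scaling 5 and 2 and 8 and 8.

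Of 13 genes for MLL complexes and H3K27 demethylases 3 rose and 4 fell, with a median of -0.06, against the same 34.4% and 34.7% over all tested genes. KMT2C (0.48 ± 0.06) and KMT2A (0.34 ± 0.06), the H3K4 methyltransferase best known for keeping HOX genes active, rose. DOT1L (-0.55 ± 0.06) and WDR5 (-0.33 ± 0.06), a shared subunit of MLL complexes, fell (SE, edgeR). DOT1L, the H3K79 methyltransferase, is counted in this list but is neither an MLL complex subunit nor an H3K27 demethylase. With library totals alone the split was 7 higher and 1 lower, and with upper-quartile scaling 4 and 3.

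Of 17 retinoic acid pathway genes 11 were tested, of which 4 were called higher and 3 lower, against 34.4% and 34.7% over all tested genes. The 4 called higher, ALDH1A3, CYP26A1, CYP26B1 and CRABP2, passed the filter only through the sh-KIF11 libraries, so their calls do not count as support for a direction. When at least 10 counts were asked of every library, 0 were called higher and 3 lower. CYP26A1, which breaks retinoic acid down, had 7, 6 and 2 counts under sh-ctrl, against 21, 23 and 14 under sh-KIF11 (log2 fold change 1.73 ± 0.46, SE, adjusted p = 0.00101, edgeR). ALDH1A3, which makes retinoic acid, had 1, 1 and 0 counts under sh-ctrl, against 10, 12 and 20 under sh-KIF11 (adjusted p = 1.64e-05, edgeR). RXRA, the partner of the retinoic acid receptors, fell by 1.09 on the log2 scale (SE 0.06), and DHRS3, which turns retinal back to retinol, fell by 0.45. RARA (-0.13), RARG (0.18) and ALDH1A1 (0.08) were not called. With library totals alone 6 were higher and 3 lower, and with upper-quartile scaling 5 and 3.

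Of 15 other homeobox genes known as HOX regulators, relatives or neighbours, 2 were tested and 9 had no count in any library. GBX2, a hindbrain border gene, rose from 27, 21 and 19 to 103, 57 and 63 counts (log2 fold change 1.53 ± 0.26, adjusted p = 1.74e-06, edgeR). MNX1, a motor neuron and pancreas gene, fell from 520, 470 and 439 to 250, 219 and 194 counts (-1.30 ± 0.09, adjusted p = 7.20e-16, edgeR). CDX2, a gut regulator of posterior HOX genes, was not tested, with 1, 6 and 0 counts under sh-ctrl, against 16, 12 and 5 under sh-KIF11, which overlapped.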

How the data were processed

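Stranded libraries were prepared from poly(A) RNA of HepG2 cells (sh-ctrl, n = 3 and sh-KIF11, n = 3). The deposited tables hold, for each gene, raw counts that were not normalized, and FPKM, in which the authors corrected for transcript length and sequencing depth. The submitters' processing notes name bcl2fastq 1.8.4, Trimmomatic, HISAT2 2.1.0, Cufflinks 2.2.1, HTSeq 0.9.1 and DESeq, and the build GRCh38 (hg38). The strand setting of the counting is not given in the sources used here. In the tables the knockdown columns are named only shRNA and were taken as sh-KIF11.

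The count table was fitted with edgeR 4.0.16 under R 4.3.3 (TMM, filterByExpr, quasi-likelihood test with the group as the only term) on 12369 genes. Benjamini-Hochberg adjustment covered all of them, with a threshold of 0.05. The filter asked for 0.531 CPM in 3 libraries, and FPKM served for levels between genes. Counts of libraries of 1 group differed by a chi-square per degree of freedom of 2.62 to 7.83 and those of different groups by 80.2 to 97.8. Each library was kept as a replicate, although these values cannot show whether libraries of a group came from separate cultures. The edgeR steps were tested on simulated counts. Alternatives used DESeq2 1.42.0, limma 3.58.1 on log2(FPKM + 1) and log2(FPKM + 0.1), other scalings and filters, a replicate block and each library left out. Cluster members, gene lists and tests were chosen with earlier results of these data known.

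Full values are given for every HOX gene that passed the filter or had at least 10 counts in a library, and for KIF11. The tested flanking genes are given by log2 fold change. Of each list, up to 2 members called in each direction, by smallest adjusted p, are given by log2 fold change or counts. Other genes named, such as EZH2, EZH1, RING1 and the HOX genes with fewer counts, were chosen after their values were seen. Not reported here are 2 genes, which all counts, sums and medians over the HOX genes and lists leave out.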

Additional observations from a re-analysis of the deposited data

How the results depend on the processing

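None of the 10 tested HOX genes changed sign under the alternatives run for it, and the other 28 were fitted only with no low-count filter. The 5 HOX genes called higher became 8 with no low-count filter, 3 when a change of at least 2-fold was also asked, and 2 when at least 10 counts were asked of every library, since only 7 HOX genes were then tested. The 4 called lower became 2 when only library totals were used and in limma, both on log2(FPKM + 1) and on log2(FPKM + 0.1), and 1 when a change of at least 2-fold was also asked. Leaving out 1 library at a time gave 4 to 5 higher and 3 to 4 lower. The HOXA ratio of 1.12 became 1.28 with summed FPKM, 1.32 with library totals alone and 1.05 without HOXA3, and 1.10 to 1.13 with 1 library left out. The HOXC ratio of 2.18 became 2.56 with library totals alone and 1.72 without HOXC13, and 2.05 to 2.37 with 1 library left out. The HOXD ratio of 0.581 became 0.681 with library totals alone and 0.468 without HOXD4, and 0.539 to 0.613 with 1 library left out. Library totals alone called 6621 genes higher and 2373 lower, against 4254 and 4294 with TMM, and among HOX genes 5 and 2 against 5 and 4; the cause of the shift was not tested. Asking over 3 counts in every library left 9 HOX genes detected in sh-ctrl and 13 in sh-KIF11. No shared variation of same-numbered libraries was seen. The correlations of deviations of libraries 1, 2 and 3 with their own number were 0.0300, -0.0185 and -0.00253. With 3 libraries per group this cannot exclude a pairing, which the labels do not state. With the replicate block, 5 HOX genes were higher and 4 lower, and 8607 genes were called against 8548. HOX genes with under about 10 counts per library are limited by depth.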
